A study of Homo sapiens with 84 samples.

Results

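Of the 58395 genes in the count files, 10 transcription factors of the squamous lineage are described here in EGF- and EpEX-treated carcinoma cells. They were chosen by symbol, with earlier results of these data known: TP63, SOX2, KLF4, KLF5, GRHL2, GRHL3, TFAP2A, ELF3, EHF, and OVOL1. All 10 had a row in every file. Stratified squamous epithelium is built from basal progenitors, which depend on p63 (encoded by TP63) and SOX2, and from suprabasal layers, in which KLF4, the grainyhead-like factor GRHL3, OVOL1, and the epithelial ETS factors ELF3 and EHF are known to act. KLF5, GRHL2, and the AP-2 factor TFAP2A act in epithelial cells of several layers, and GRHL2 is also known for maintaining epithelial junction genes and repressing ZEB1. Ligands of the epidermal growth factor receptor (EGFR) drive proliferation of keratinocytes and, in carcinoma cells, can start an epithelial-to-mesenchymal transition (EMT).

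The libraries came from Kyse30, a line of an esophageal squamous cell carcinoma, and FaDu, a line of a squamous cell carcinoma of the pharynx. All cells, controls included, had been serum-starved for 24 h and were then kept without serum, as untreated cells for 0, 6, or 72 h, or for 6 or 72 h with the immunoglobulin region Fc alone, with EGF at 1.8 nM (EGFlow) or 9 nM (EGFhigh), with the extracellular domain of EpCAM fused to Fc (EpEX), or with EGFhigh + EpEX. Untreated cells are the control of EGF and Fc that of EpEX. Of 84 libraries, 63 are described: all 43 of Kyse30, with 3 or 4 per condition, and the 20 of FaDu replicates 3 and 4, with 1 or 2 per condition. The 21 FaDu libraries of replicates 1 and 2 stand apart in their profiles, which was known when the 20 were chosen, and fits with all 41 FaDu libraries are given beside the results that rest on that choice. Nothing in the labels says that replicates are separate cultures, so p-values measure the spread between these samples. Only the 3′ end of each transcript was read, so that CPM (counts relative to the scaled library total, as defined by edgeR) can be compared between genes without a correction for length. In these bulk samples, fewer cells that express a gene and less RNA per cell cannot be told apart.

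Totals of counts on genes were 1944948 to 11759799 per library in Kyse30 and 6217938 to 12442349 in FaDu replicates 3 and 4, so that 3 counts, the smallest amount taken as detected, corresponded to 0.241 to 1.54 CPM (counting error only). Of 10 markers of squamous epithelium, 1 of which is TP63 itself, 8 had a median over 1 CPM in Kyse30 and 10 in FaDu. KRT14 and PKP1 were the exceptions in Kyse30, with medians of 0.688 and 0.214 CPM, and the basal keratin KRT5 had a median of only 2.10 CPM there against 205 CPM in FaDu. Markers of columnar epithelium summed to 0 to 7.09 CPM in Kyse30 and 0.116 to 2.34 CPM in FaDu, and none of the 8 had a median over 1 CPM in either line. The 7 fibroblast markers summed to 10.97 to 47.2 CPM in Kyse30 and 6.98 to 15.5 CPM in FaDu. A median over 1 CPM was reached by 3 of them in Kyse30 (COL1A1, COL1A2, and THY1) and by 2 in FaDu (COL1A1 and COL3A1). DCN and LUM had medians of 0 CPM in both lines. A gene was called differentially expressed (DEG) at an adjusted p of at most 0.05 with an absolute log2 fold change (log2FC) over 0.5.

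Of the 10 factors, KLF5 had the lowest adjusted p in any treatment comparison. It is a zinc finger factor that promotes proliferation of epithelial progenitors and lies at chr13:73054976-73077542 on the plus strand of GRCh38. In FaDu cells it rose while the ETS factor ELF3, at chr1:202007945-202017188 on the plus strand, fell. The 250 bases before their transcription starts are shown so that these regulatory regions can be read beside the values. They come from RefSeq (GRCh38.p14), both genes are on the plus strand, and capitals mark a GC box (GGGCGGG or its reverse complement), the kind of site that KLF and SP factors bind. KLF5 has 2 starts in RefSeq, and its windows lie at chr13:73054726-73054975 and chr13:73058755-73059004, whereas that of ELF3 lies at chr1:202010337-202010586.
KLF5 upstream start: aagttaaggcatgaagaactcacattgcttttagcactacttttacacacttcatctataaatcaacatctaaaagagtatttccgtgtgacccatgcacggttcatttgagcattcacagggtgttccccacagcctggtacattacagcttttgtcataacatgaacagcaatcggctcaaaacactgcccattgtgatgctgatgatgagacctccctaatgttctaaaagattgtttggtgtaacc
KLF5 downstream start: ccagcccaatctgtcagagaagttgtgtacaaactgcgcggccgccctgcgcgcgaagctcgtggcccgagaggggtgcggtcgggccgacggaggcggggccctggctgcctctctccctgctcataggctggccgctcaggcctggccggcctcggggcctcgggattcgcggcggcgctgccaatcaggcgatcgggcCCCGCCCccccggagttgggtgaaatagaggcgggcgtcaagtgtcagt
ELF3: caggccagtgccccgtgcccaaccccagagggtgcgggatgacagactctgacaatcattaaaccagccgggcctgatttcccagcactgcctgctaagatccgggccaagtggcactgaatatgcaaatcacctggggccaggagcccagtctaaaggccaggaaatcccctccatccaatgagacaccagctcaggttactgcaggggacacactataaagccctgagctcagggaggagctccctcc

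Both strands of these windows were searched for the AP-1 site TGANTCA, the GC box GGGCGGG, the grainyhead site AACCNGTT, and the ETS site AGGAAG. The downstream KLF5 window held 1 GC box, and the other KLF5 window and that of ELF3 held none of the 4 motifs. RefSeq entries were found for 8 of the 10 factors, with 12 windows in all. GC boxes were in 3 of these 12 windows (31.5% of 35116 windows of all genes) and ETS sites in 4 (28.7%), whereas the AP-1 site (6.57% of all windows) and the grainyhead site (1.49%) were in none of the 12. The G and C content was 40.8% and 70.8% in the upstream and downstream KLF5 windows and 58.4% in that of ELF3. Which of the KLF5 starts was used cannot be read from 3′ counts.

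In control cells at 6 h (untreated and Fc, 6 libraries of Kyse30 and 4 of FaDu), ELF3 was the most abundant of the 10 factors in both lines, with 245 ± 19.1 CPM (SD, n = 6) in Kyse30 and 193 ± 22.7 CPM (SD, n = 4) in FaDu. In Kyse30 the order was ELF3, KLF5, SOX2, GRHL2, TFAP2A, TP63, KLF4, OVOL1, EHF, and GRHL3. ELF3 did not overlap with KLF5, but KLF5 overlapped with SOX2, SOX2 with GRHL2, GRHL2 with TFAP2A, TP63 with KLF4, and KLF4 with OVOL1. In FaDu the order was ELF3, TFAP2A, GRHL2, KLF5, TP63, SOX2, KLF4, OVOL1, EHF, and GRHL3, with overlap between the neighbors GRHL2 and KLF5, TP63 and SOX2, SOX2 and KLF4, and OVOL1 and EHF. GRHL3 was at the limit of detection in both, over 3 counts in 18 of 43 Kyse30 and 4 of 20 FaDu libraries and never above 3.03 CPM, so that its changes were not detectable at this depth. Its values are further limited by the gene STPG1 on the opposite strand, since the strand setting of the counting is not stated, and reads of overlapping genes cannot then be told apart. The same holds for TFAP2A with TFAP2A-AS1 and TFAP2A-AS2, ELF3 with ELF3-AS1, and OVOL1 with OVOL1-AS1, while SOX2 lies within SOX2-OT on the same strand. These partners had medians of 0 to 4.18 CPM. Opposite-strand genes also overlap GRHL2 (AP001207.1, AP001207.2, and AP001207.3), TP63 (AC078809.1), GRHL3 (AL138902.1), and OVOL1 (AP001266.1). Same-strand genes overlap ELF3 (AL691482.3) and TP63 (MIR944). MIR944 was at 0 CPM in every library described, and levels of the others are not given here.

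**Figure D1:**
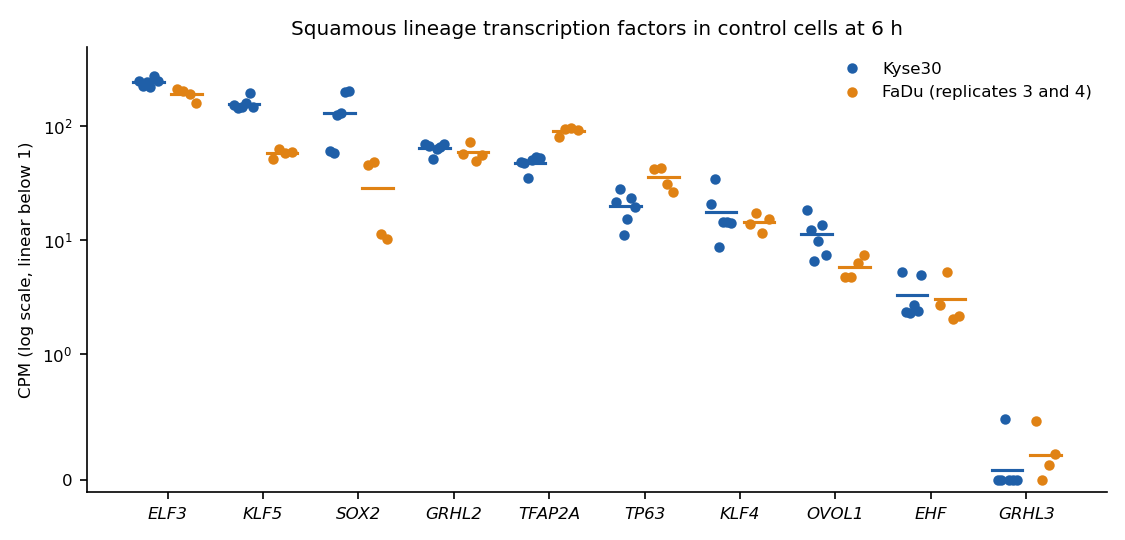
CPM (log scale, linear below 1) of the 10 factors in untreated and Fc cells at 6 h, with 1 point per library and bars at the means, for 6 Kyse30 and 4 FaDu libraries. KLF5 and SOX2 lie lower and TFAP2A higher in FaDu than in Kyse30, and GRHL3 lies near 0 in both.

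The lines were compared in these 6 h controls, where 36.4% of the 19634 genes tested were DEGs, and 3 of the 10 factors were. KLF5 was at 145 to 196 CPM in Kyse30 and at 51.3 to 62.7 CPM in FaDu, a log2FC of -1.41 (SE 0.14, adjusted p = 4.48e-12). SOX2, a partner of p63 in squamous carcinoma, was at 58.0 to 205 CPM in Kyse30 and at 10.1 to 48.9 CPM in FaDu (log2FC -2.13, SE 0.57, adjusted p = 0.00207). TFAP2A was higher in FaDu, with 80.9 to 97.7 CPM against 35.0 to 53.3 CPM (log2FC 0.99, SE 0.15, adjusted p = 3.97e-07). The groups did not overlap for these 3 genes. Here and below, the share of all genes whose groups do not overlap is not given, so non-overlap only describes the values. ELF3 and GRHL2 had log2FC of -0.30 (95% confidence interval of -0.86 to 0.26, adjusted p = 0.442) and -0.09 (adjusted p = 0.788), TP63 of 0.89 (adjusted p = 0.123), and OVOL1 of -0.91 (adjusted p = 0.057). TP63 was called when only these groups were in the fit (log2FC 0.83, adjusted p = 0.0118), as was OVOL1 (log2FC -0.96, adjusted p = 0.0288). With all 41 FaDu libraries KLF5 lost its call (log2FC -0.70, adjusted p = 0.257), and EHF, at 2.28 to 5.21 CPM in Kyse30 and 2.01 to 5.22 CPM in FaDu replicates 3 and 4, was called higher in FaDu (log2FC 2.31, adjusted p = 0.0323) against -0.12 in the 4 libraries used here. Which line a library came from cannot be told apart from when or in which batch the lines were prepared.

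The other lists are read against the 36.4% of all genes called between the lines. Since the lists were chosen with earlier results of these data known, their shares are descriptive and are not a test. Of 16 basal squamous genes tested, 13 were DEGs (6 higher and 7 lower in FaDu), and of 17 Notch pathway genes 13 were (6 higher, 7 lower). The basal keratins KRT17 (log2FC 7.63) and KRT5 (log2FC 6.47) were higher in FaDu and the hemidesmosome collagen COL17A1 (log2FC -4.21) and the integrin ITGA6 (log2FC -3.00) lower. Of 24 other epithelial transcription factors tested, 6 were higher, among them PITX1 (log2FC 4.30) and PAX9 (log2FC 3.10), and 7 lower, among them GATA3 (log2FC -5.94) and PRDM1 (log2FC -5.19). Of 29 squamous differentiation genes tested, 13 were higher, with KRT1 and S100A7 leading (15.3 ± 11.6 and 8.18 ± 4.28 CPM in FaDu, SD, n = 4, against means of 0.029 and 0.0468 CPM in Kyse30), and 6 lower, with SCEL (log2FC -3.85) and the cornified envelope precursor IVL (log2FC -3.63) lowest. Of the Notch pathway, HEYL (2.25 ± 1.87 CPM in FaDu, SD, n = 4, and 0 in all 6 Kyse30 libraries) and MFNG (log2FC 2.77) led the higher genes, and HES2 (log2FC -5.19) and HEY1 (log2FC -3.35) the lower ones. Junction and protease genes (38.1% called) and EMT transcription factors (37.5%) lay near that share. Of 21 junction and protease genes, EPCAM (log2FC 0.88) and MAL2 (log2FC 0.64) were higher and 6 lower, with CLDN1 (log2FC -4.88) and CGN (log2FC -3.55) lowest, and 3 of 8 EMT transcription factors were lower, FOXC2, PRRX1, and ZEB1, the first 2 at or below 1.49 CPM on average in both lines.

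Treatment for 6 h was compared with the control of each agent, to see which of the factors respond early to EGFR ligands. In FaDu replicates 3 and 4, the same 3 of the 9 factors tested were DEGs with EGFhigh (3.06% of 16022 genes called), EGFlow (3.45%), and EpEX (3.5%). KLF5 rose, and ELF3 and GRHL2 fell. GRHL3 did not pass the filter on low counts.

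KLF5 was at 51.3 and 58.5 CPM in the untreated libraries (replicates 3 and 4) and at 62.7 and 59.6 CPM with Fc. It was at 209 and 233 CPM with EGFlow, at 194 and 202 CPM with EGFhigh, and at 248 and 251 CPM with EpEX. Each library of a single agent was above all controls, and the groups did not overlap. The rise was 3.6-fold with EGFhigh (log2FC 1.85, SE 0.16, adjusted p = 3.75e-06), 4.03-fold with EGFlow (log2FC 2.01, SE 0.16, adjusted p = 1.39e-06), and 4.08-fold with EpEX against Fc (log2FC 2.03, SE 0.16, adjusted p = 1.18e-06). The single FaDu library of EGFhigh + EpEX at 6 h was at 116 CPM, between the controls and the single agents, with no replicate to test it.

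ELF3, which in many epithelia is expressed as cells differentiate, moved the other way. It was at 214 and 191 CPM in untreated FaDu cells and at 206 and 162 CPM with Fc. It was at 51.3 and 45.0 CPM with EGFlow, at 78.1 and 37.3 CPM with EGFhigh, and at 54.1 and 39.4 CPM with EpEX. Treated libraries were thus all below the controls. The fall was 3.50-fold with EGFhigh (log2FC -1.81, SE 0.26, adjusted p = 0.000537), 4.21-fold with EGFlow (log2FC -2.07, SE 0.27, adjusted p = 0.00013), and 3.95-fold with EpEX (log2FC -1.98, SE 0.27, adjusted p = 0.000232). EGFhigh + EpEX at 6 h, in 1 library, was at 119 CPM.

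GRHL2, at chr8:101492432-101669726, fell less. It was at 57.2 and 49.98 CPM in untreated FaDu cells and at 73.4 and 55.7 CPM with Fc, and at 27.1 to 36.4 CPM in the 6 libraries of single agents, with no overlap. The log2FC was -0.85 with EGFhigh (SE 0.20, adjusted p = 0.0199), -0.94 with EGFlow (SE 0.20, adjusted p = 0.0104), and -0.93 with EpEX (SE 0.19, adjusted p = 0.00998). This is a fall of 1.8-, 1.92-, and 1.9-fold.

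Leaving out 1 FaDu library leaves 1 in that group, which is then assumed to vary like the other groups. In such fits KLF5 and ELF3 stayed called with single agents at 6 h, but GRHL2 did not in each. Without EGFhigh replicate 3 or 4, or untreated replicate 3 or 4, the adjusted p of the EGFhigh comparison was 0.0553 to 0.204. Only the groups compared in the fit gave 0.0856. With EGFlow it was 0.0749 and 0.0717 without EGFlow replicate 3 or 4 and 0.124 without untreated replicate 3, and with EpEX 0.145 without Fc replicate 3 and 0.114 without EpEX replicate 4, and 0.111 with only the groups compared. None of these calls held when all 41 FaDu libraries were fitted together, where no gene was a DEG in any of the 3 comparisons: the log2FC of KLF5 was then 0.07 with EGFhigh, 0.51 with EGFlow, and 1.05 with EpEX, that of ELF3 -0.90, -1.67, and -1.32, and that of GRHL2 -0.12, -0.24, and -0.14 (adjusted p = 1 for all 9 values). In replicates 1 and 2, KLF5 ranged from 6.81 to 293 CPM of the total over conditions, and ELF3 from 1.72 to 593 CPM.

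SOX2 was lower in every FaDu library of a single agent than in every control, but it was not called. SOX2 was at 45.6 and 11.3 CPM in untreated cells and 48.9 and 10.1 CPM with Fc (replicates 3 and 4). It was at 5.22 and 2.53 CPM with EGFlow, 4.95 and 2.31 CPM with EGFhigh, and 7.46 and 1.26 CPM with EpEX. The single library of EGFhigh + EpEX, replicate 3 at 18.2 CPM, lay below both controls of replicate 3 and above both of replicate 4. The log2FC was -2.95 with EGFhigh (SE 0.88, adjusted p = 0.0909), -2.88 with EGFlow (SE 0.88, adjusted p = 0.0904), and -2.81 with EpEX (SE 0.89, adjusted p = 0.105). With only the groups compared in the fit, SOX2 was called with EGFhigh (adjusted p = 0.0345) and EGFlow (adjusted p = 0.0071). Without a filter on low counts it was called with EGFhigh, EGFlow, and EpEX (adjusted p = 1.66e-16, 9.9e-16, and 8.96e-15). These p-values rest on a smaller estimated spread (SE 0.33 each) at nearly the same log2FC (-2.96, -2.885, and -2.81). DESeq2, RLE size factors, and all 41 FaDu libraries gave no SOX2 call. Over all alternatives its log2FC ran from -3.63 to -0.90 with EGFhigh, -3.56 to -0.37 with EGFlow, and -4.53 to -1.28 with EpEX. The fit with a replicate block is described with the dependence on processing.

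KLF4, TP63, TFAP2A, EHF, and OVOL1 were not called in FaDu cells at 6 h. KLF4 was at 11.5 to 17.4 CPM in the 4 controls and at 16.5 to 42.5 CPM in the 6 libraries of single agents, with the highest values in replicate 4 of EpEX and EGFhigh. OVOL1 was at 4.73 to 7.39 CPM in controls and 7.60 to 16.1 CPM with single agents, which did not overlap (log2FC 0.91, 0.68, and 1.05 with EGFhigh, EGFlow, and EpEX, adjusted p = 0.361, 0.498, and 0.262). TP63 spread over 16.7 to 64.7 CPM in the treated libraries, a range that held all of its controls.

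**Figure D2:**
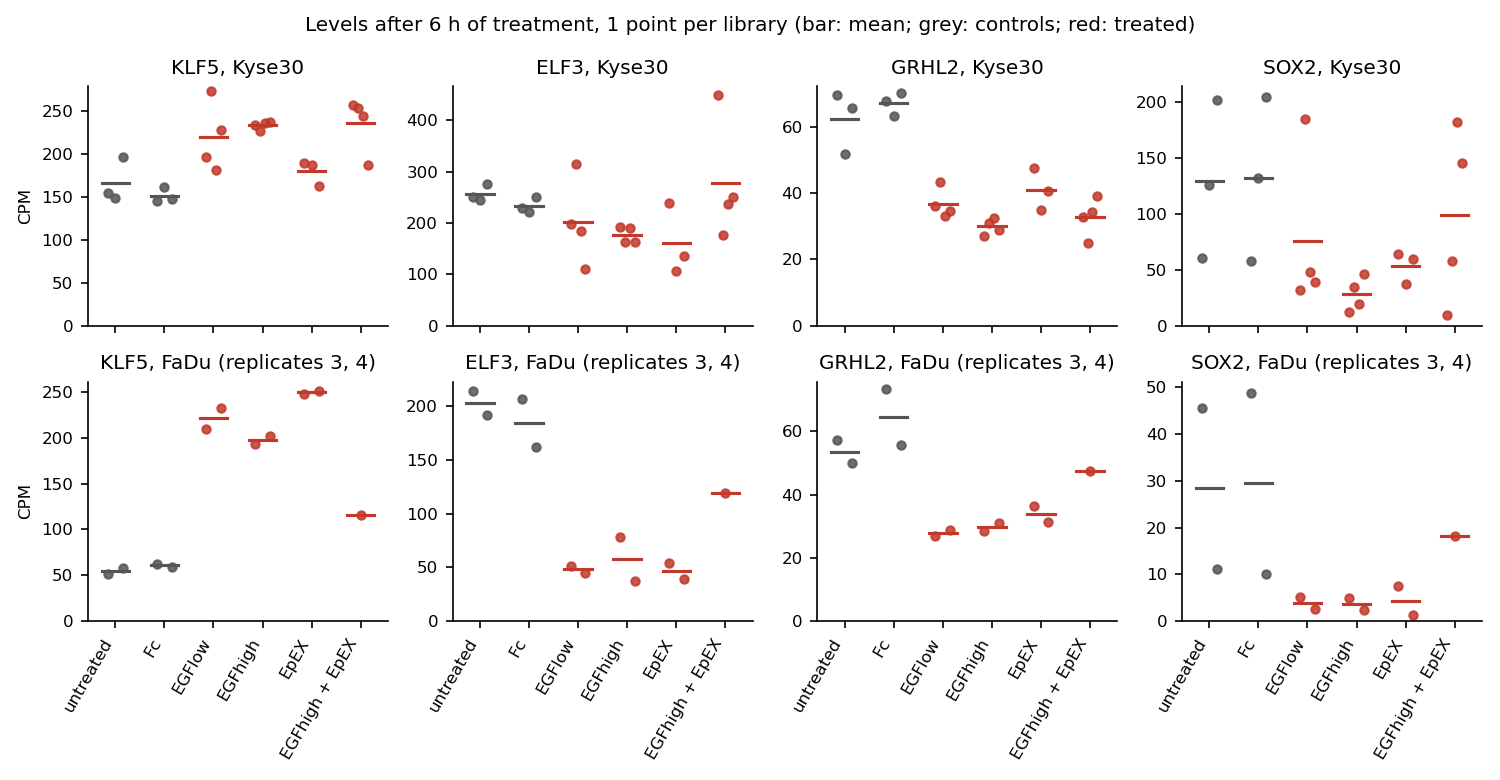
CPM of KLF5, ELF3, GRHL2, and SOX2 at 6 h in each Kyse30 library and each library of FaDu replicates 3 and 4, by treatment, with bars at the means, grey for controls and red for treated cells. In FaDu, KLF5 stands at 194 to 251 CPM with single agents against 51.3 to 62.7 CPM in controls, while ELF3, GRHL2, and SOX2 with single agents stand below their controls.

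In Kyse30 at 6 h, GRHL2 was the factor that fell with the most agents. It was at 69.7, 51.9, and 65.8 CPM in untreated cells and at 67.8, 63.3, and 70.1 CPM with Fc. With EGFhigh it was at 27.2, 31.1, 32.6, and 28.8 CPM, and with EGFhigh + EpEX at 32.7, 25.0, 34.2, and 39.1 CPM. These groups did not overlap with their controls. The log2FC was -1.06 for EGFhigh (SE 0.24, adjusted p = 0.0116), where 2.55% of 15350 genes were DEGs and 2 of the 10 factors were, and -1.03 for EGFhigh + EpEX against Fc (SE 0.24, adjusted p = 0.00922), where 4.52% of genes and 2 of the 10 factors were. Without untreated replicate 1 or 4 the EGFhigh call was lost (adjusted p = 0.0686 and 0.0654), as was that of EGFhigh + EpEX without Fc replicate 4 (adjusted p = 0.0543). With EGFlow, at 32.9 to 43.3 CPM, and with EpEX, at 34.8 to 47.6 CPM, all libraries were below their controls too, but the log2FC of -0.76 (SE 0.24, adjusted p = 0.105) and -0.71 (SE 0.27, adjusted p = 0.365) did not pass.

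SOX2 was the other factor called with EGFhigh at 6 h. It was at 60.1, 126, and 202 CPM in untreated cells and at 12.6, 34.8, 19.3, and 46.5 CPM with EGFhigh (log2FC -2.17, SE 0.60, adjusted p = 0.0384), a 4.49-fold fall with no overlap. The call rested on single libraries: leaving out EGFhigh replicate 1, 2, or 3 or untreated replicate 3 or 4 gave adjusted p-values of 0.0845 to 0.25. With EGFhigh + EpEX the libraries ran from 9.64 to 182 CPM and with EGFlow from 31.5 to 185 CPM, ranges that overlapped with the controls. EGFhigh + EpEX against EGFhigh gave a SOX2 log2FC of 1.78 (SE 0.57, adjusted p = 1).

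KLF5 rose in Kyse30 with EGFhigh + EpEX, from 145, 161, and 147 CPM with Fc to 256, 253, 244, and 187 CPM (log2FC 0.64, SE 0.17, adjusted p = 0.0199). With EGFhigh alone it stood at 226 to 237 CPM, above the untreated libraries at 149 to 196 CPM, without passing the test (log2FC 0.49, SE 0.17, adjusted p = 0.113). The EGFhigh + EpEX call was lost without Fc replicate 1 or 4 (adjusted p = 0.105 and 0.072), without a filter on low counts (adjusted p = 0.067), and with only the groups compared in the fit (adjusted p = 0.125). The rise with EGFhigh was larger in FaDu than in Kyse30: as an interaction over both lines, in which 12 of 19634 genes were DEGs (0.0611%), KLF5 had a difference in log2FC of 1.33 (SE 0.26, adjusted p = 0.0129). With all 41 FaDu libraries the difference was -0.40 (adjusted p = 1). For ELF3, which was lower in the Kyse30 EGFhigh libraries (163 to 193 CPM) than in the untreated ones (245 to 276 CPM; log2FC -0.53, adjusted p = 0.509), the difference was -1.30 (SE 0.55, adjusted p = 0.989), and for GRHL2 it was 0.18 (SE 0.37, adjusted p = 1).

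TFAP2A came close to a call with EGFlow at 6 h, where 1.5% of genes but none of the 10 factors were DEGs. It was at 23.4 to 35.1 CPM against 35.0 to 53.3 CPM in untreated cells (log2FC -0.69, SE 0.19, adjusted p = 0.0569). Of the 10 factors, 3 had an unadjusted p under 0.05 there, as did 2100 of 15350 genes in all. DESeq2 called 1 of the 10 factors, TFAP2A (adjusted p = 0.0202). EpEX alone gave 4 DEGs among all genes (0.0261%) and none among the factors. An unadjusted p under 0.05 was reached by 2 of the 10 factors and by 1451 of 15350 genes, with no factor called by DESeq2. TP63, KLF4, EHF, and OVOL1 were called with no treatment in Kyse30 at 6 h. TP63, for instance, was at 11.03 to 28.4 CPM in the controls and 6.11 to 29.6 CPM in all treated libraries.

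**Figure D3:**
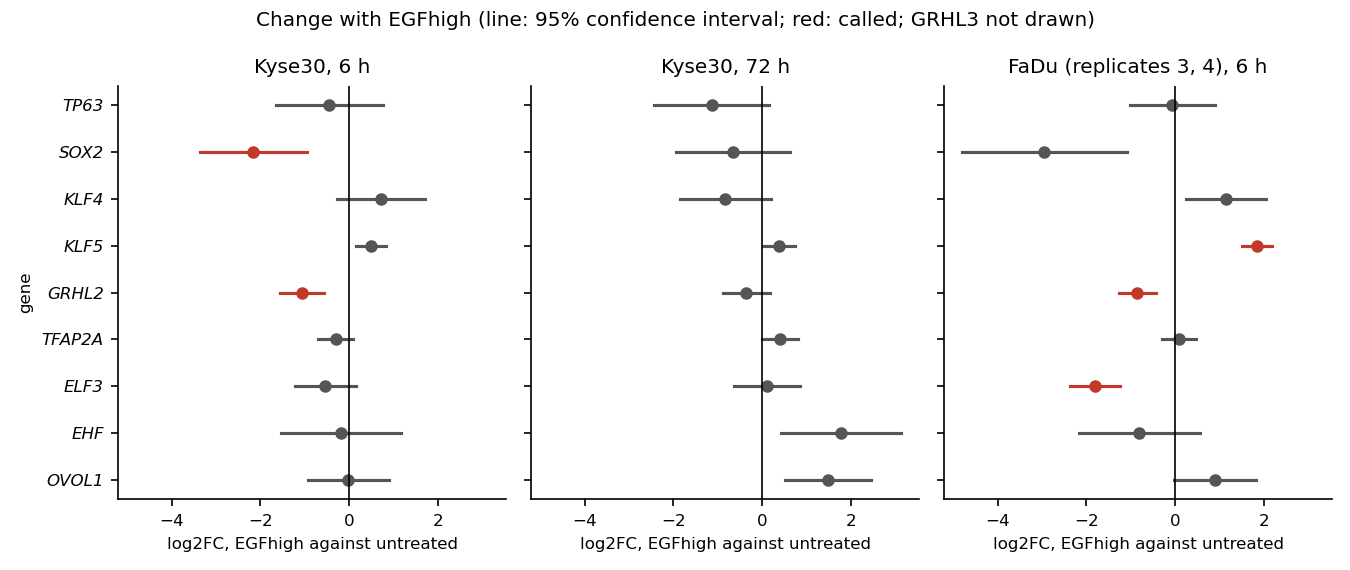
Log2FC of EGFhigh against untreated cells for 9 factors in Kyse30 at 6 h and 72 h and in FaDu replicates 3 and 4 at 6 h, with 95% confidence intervals as lines and called genes in red (GRHL3, near 0 CPM, is not drawn). GRHL2 is called at 6 h in both lines, at -1.06 and -0.85, whereas KLF5 is called in FaDu, at 1.85, and not in Kyse30, at 0.49.

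The later time, 72 h, served to see which changes outlast the early response. EGFhigh changed 6.2% of all genes in Kyse30 and, in the edgeR test, none of the 10 factors. Of the 10 factors, 3 had an unadjusted p under 0.05, as did 2982 of 15350 genes in all. DESeq2 called OVOL1 (log2FC 1.49, adjusted p = 0.0345). OVOL1, a repressor that counteracts EMT and promotes differentiation in epidermis, was at 34.9, 55.8, and 40.1 CPM with EGFhigh and at 17.2, 17.0, and 12.5 CPM in untreated cells, without overlap (log2FC 1.48, SE 0.48, adjusted p = 0.0562). It was also called with no filter on low counts (SE 0.38, adjusted p = 0.00405). With only these groups in the fit it was called too (SE 0.29, adjusted p = 0.0191). EHF was at 40.5, 26.6, and 12.3 CPM with EGFhigh against 7.35, 7.06, and 8.59 CPM (log2FC 1.79, SE 0.67, adjusted p = 0.112). EHF was called with no filter (SE 0.56, adjusted p = 0.0361) and with only these groups (SE 0.44, adjusted p = 0.0462), but not by DESeq2. Both of these edgeR fits gave OVOL1 and EHF a smaller SE at nearly the same log2FC. Neither EHF nor OVOL1 was called with RLE size factors or in any of 6 fits with 1 library left out. Over all alternatives the edgeR or DESeq2 adjusted p reached 0.351 for EHF and 0.184 for OVOL1.

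Against EGFlow, EHF passed the test. It was at 7.99, 4.32, 3.95, and 6.16 CPM with EGFlow, below each EGFhigh library, and the 4.67-fold difference (log2FC 2.22, SE 0.62, adjusted p = 0.0309) made EHF 1 of the 573 DEGs of this comparison (3.73% of genes) and the only one of the 10 factors. The call was lost without EGFhigh replicate 1 (log2FC 1.79, adjusted p = 0.168) or 3 (adjusted p = 0.0714) and without EGFlow replicate 2, 3, or 4 (adjusted p = 0.106, 0.0802, and 0.0596). With EGFhigh + EpEX, EHF was at 16.0, 10.7, and 3.34 CPM and OVOL1 at 20.3, 14.4, and 32.0 CPM. Between EGFhigh + EpEX and EGFhigh 3.58% of genes were DEGs, but none of the 10 factors (none called by DESeq2 either). An unadjusted p under 0.05 was reached by 5 of the 10 factors and by 2492 of 15350 genes. The log2FC was -1.40 for EHF (SE 0.66, adjusted p = 0.282), -0.97 for OVOL1 (SE 0.47, adjusted p = 0.302), and 0.63 for GRHL2 (SE 0.26, adjusted p = 0.198).

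GRHL2 and SOX2 did not pass at 72 h. GRHL2 was at 21.0, 64.5, and 53.2 CPM with EGFhigh and 52.3 to 65.02 CPM in untreated cells (log2FC -0.36, SE 0.26, adjusted p = 0.488), where replicate 1 of EGFhigh lay below all other Kyse30 libraries. SOX2 was at 38.8, 27.6, and 100.1 CPM with EGFhigh and at 60.6, 84.1, and 119 CPM in untreated cells, which overlapped (log2FC -0.66, SE 0.63, adjusted p = 0.634). In replicate 1 of EGFhigh TP63 was at 2.45 CPM, with 2.19 CPM in replicate 1 of EGFlow and 2.58 CPM in replicate 3 of Fc, against 17.4 to 46.8 CPM in the other 16 libraries of 72 h. The change of the EGFhigh effect from 6 to 72 h was itself tested, with 1.01% of genes called and none of the 10 factors. Of the 10 factors, 4 had an unadjusted p under 0.05, as did 2107 of 15350 genes in all, and DESeq2 called none of the factors. The difference in log2FC was 1.98 for EHF (SE 0.94, adjusted p = 0.337), 1.5 for OVOL1 (SE 0.66, adjusted p = 0.289), 1.51 for SOX2 (SE 0.87, adjusted p = 0.449), -1.55 for KLF4 (SE 0.71, adjusted p = 0.309), and 0.70 for GRHL2 (SE 0.36, adjusted p = 0.379). Without a filter on low counts SOX2 (adjusted p = 0.00252) and KLF4 (adjusted p = 0.0383) were called.

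Time in serum-free medium moved KLF5 as well. In untreated Kyse30 cells it rose from 154, 149, and 196 CPM at 6 h to 282, 314, and 251 CPM at 72 h (log2FC 0.76, SE 0.18, adjusted p = 0.0155), a comparison with 1.55% of genes called and 1 of the 10 factors. The call was lost without replicate 1 or 3 of 6 h (adjusted p = 0.0917 and 0.149) or replicate 1 or 2 of 72 h (adjusted p = 0.0619 and 0.111), and without a filter on low counts (adjusted p = 0.0574). TFAP2A (35.0 to 53.3 CPM at 6 h, 56.9 to 78.5 CPM at 72 h, log2FC 0.61, SE 0.21, adjusted p = 0.138) and EHF (2.28 to 5.21 CPM, then 7.06 to 8.59 CPM, log2FC 1.23, adjusted p = 0.455) were higher at 72 h in each library, without passing.

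In the other 8 comparisons of Kyse30 no gene was called in edgeR (0% of 15350 genes), and so none of the factors. These were EGFhigh against EGFlow, EGFhigh + EpEX against EGFhigh, and Fc against untreated cells at 6 h, untreated cells at 6 h against 0 h, and, at 72 h, EGFlow, Fc, EpEX, and EGFhigh + EpEX against their controls. Between 355 and 601 genes had an unadjusted p under 0.05 in them, against at most 2 of the 10 factors, and DESeq2 called none of the factors. The widest KLF5 log2FC among the 4 comparisons at 72 h was 0.25, for EGFhigh + EpEX against Fc (SE 0.18, adjusted p = 1).

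**Figure D4:**
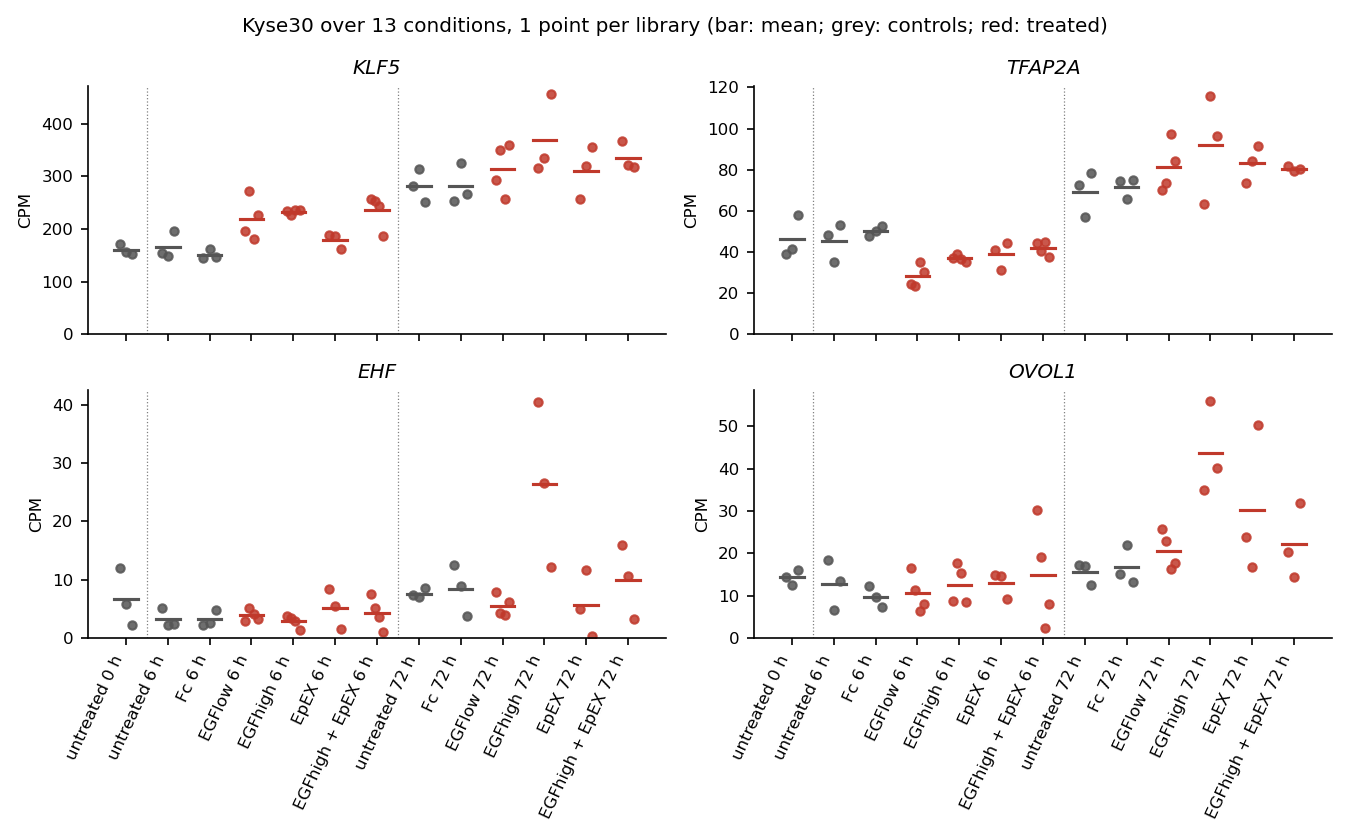
CPM of KLF5, TFAP2A, EHF, and OVOL1 in each of the 43 Kyse30 libraries over 13 conditions, with bars at the means, grey for controls and red for treated cells. KLF5 stands at 251 to 456 CPM in the libraries of 72 h against 145 to 272 CPM before, and EHF reaches 40.5 CPM with EGFhigh at 72 h.

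FaDu cells at 72 h could be tested for EGFhigh + EpEX against Fc only, as the other agents had 1 library of replicates 3 and 4 each. In that comparison 0.818% of genes were DEGs, and EHF was the only one of 9 factors. It was at 1.29 and 2.62 CPM with EGFhigh + EpEX and at 21.5 and 7.48 CPM with Fc (log2FC -2.87, SE 0.62, adjusted p = 0.0355). Without Fc replicate 3 the log2FC was -1.92 (adjusted p = 0.759), without EGFhigh + EpEX replicate 3 it was -2.45 (adjusted p = 0.349), without EGFhigh + EpEX replicate 4 -3.47 (adjusted p = 0.203), and with all 41 FaDu libraries -1.20 (adjusted p = 1). KLF5 was at 50.7 and 53.0 CPM against 43.5 and 45.4 CPM (log2FC 0.22, SE 0.16, adjusted p = 0.96).

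Fc cells at 72 h against 6 h in FaDu had 2.88% of genes called and 1 of 9 factors. ELF3 fell from 206 and 162 CPM to 84.8 and 94.3 CPM (log2FC -1.04, SE 0.26, adjusted p = 0.0355), a call lost without any 1 of these 4 libraries (adjusted p = 0.272 and 0.0506 without Fc replicate 3 or 4 of 6 h, and 0.239 and 0.186 without replicate 3 or 4 of 72 h) and with all 41 libraries (log2FC -0.94, adjusted p = 1). Replicate 4 also held the only library of replicates 3 and 4 of untreated cells, EGFhigh, and EpEX at 72 h. KLF5 was at 111 CPM with EGFhigh and 40.8 CPM in untreated cells, ELF3 at 33.8 and 79.8 CPM, and SOX2 at 1.98 and 35.9 CPM, with no replicate. With EpEX at 72 h KLF5 was at 42.2 CPM, against 45.4 CPM in the Fc library of replicate 4.

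The genes of the wider program were counted for EGFhigh in 6 lists. Because these lists were chosen with earlier results of these data known, their shares and medians are descriptive here and at 72 h. In Kyse30 at 6 h, where 2.55% of all genes were called, 2 of 22 squamous differentiation genes tested rose, KRT6A (log2FC 3.11, SE 0.66, adjusted p = 0.00625), a keratin of activated keratinocytes, and SPRR2A (log2FC 3.22, SE 0.79, adjusted p = 0.0165), a cornified envelope precursor, and none fell. The median log2FC was 1.08 over this list and -0.05 over all genes. Of 15 basal squamous genes 1 rose, ITGA6 (log2FC 0.65), and of 23 other epithelial transcription factors 1, PITX1 (log2FC 1.35). In the Notch pathway (16 tested) the ligand JAG1 rose (log2FC 1.15) and the glycosyltransferase LFNG fell (log2FC -1.88), and among 21 epithelial junction and protease genes LAD1 rose (log2FC 0.79) and the splicing regulator ESRP1 fell (log2FC -0.92). None of 6 EMT transcription factors tested was called.

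At 72 h in Kyse30, where 6.2% of all genes and none of the 10 factors were called, 7 of 22 differentiation genes rose and none fell, with a median log2FC of 1.25 over the list and -0.03 over all genes. SPRR1B went from 9.62 ± 0.98 to 536 ± 116 CPM (SD, n = 3 each, log2FC 5.81, SE 0.50, adjusted p = 1.6e-10) and SPRR2A from 1.42 ± 0.90 to 69.4 ± 53.9 CPM (log2FC 5.67, SE 0.88, adjusted p = 3.34e-05). SPRR2A, KRT6A, KRT16, and KRT17 have close paralogs whose 3′ ends can share reads, which leaves their values uncertain. Of 15 basal genes 4 rose, among them the integrin ITGB4 (log2FC 2.02, SE 0.31, adjusted p = 2.73e-05) and KRT17 (log2FC 2.22, SE 0.54, adjusted p = 0.00777). Of 21 junction and protease genes 5 rose, with LAD1 (log2FC 1.07) and CLDN7 (log2FC 1.07) leading, and 1 fell, the tight junction gene CLDN1 (log2FC -1.39). The Notch pathway had 4 genes higher, led by MFNG (log2FC 2.18) and NRARP (log2FC 1.64), and 2 lower, LFNG (log2FC -2.16) and the ligand JAG2 (log2FC -1.22). SOX15 (log2FC 1.05) was the only one called of 23 other epithelial transcription factors, and no EMT transcription factor was.

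In FaDu at 6 h with EGFhigh, where 3.06% of all genes were called, no differentiation gene of 26 tested was called, and 3 of 16 basal genes rose, with KRT17 (log2FC 2.09) and S100A2 (log2FC 1.21) leading. BNC1, a zinc finger factor of basal keratinocytes, rose among 23 other epithelial transcription factors (log2FC 2.48), and JAG1 among 17 Notch pathway genes (log2FC 1.39). Of the epithelial junction and protease genes, CLDN1 rose (log2FC 3.02) and CLDN4 fell (log2FC -0.86). The CLDN1 difference between the lines was 1 of the 12 DEGs of the interaction.

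**Figure D5:**
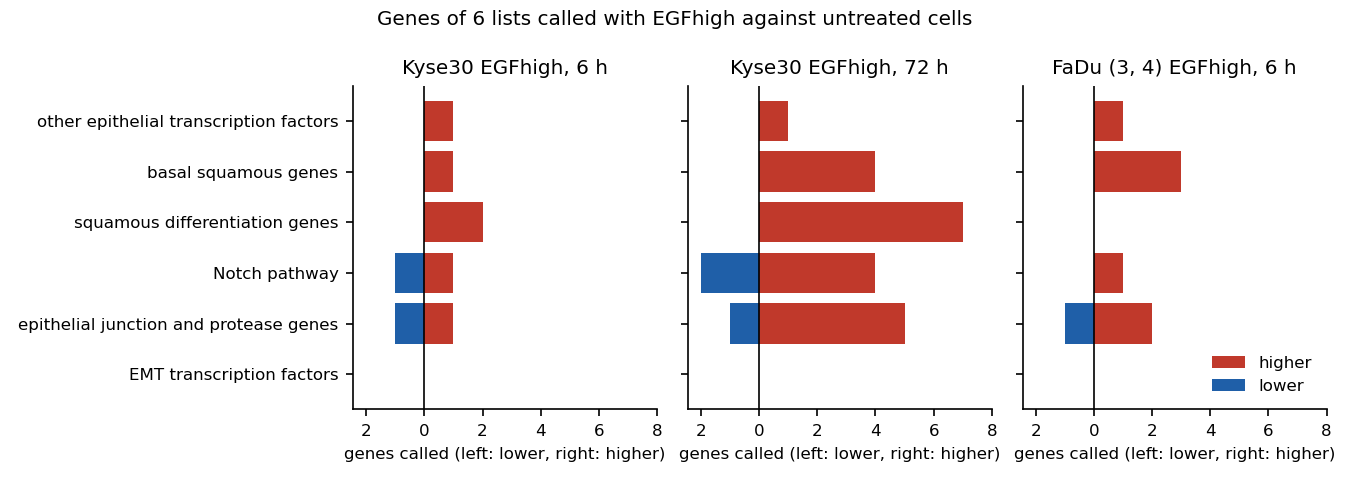
Number of genes of 6 lists called higher (right, red) or lower (left, blue) with EGFhigh against untreated cells in Kyse30 at 6 h and 72 h and in FaDu replicates 3 and 4 at 6 h. Squamous differentiation genes have 2, 7, and 0 genes higher, and EMT transcription factors have none called.

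Over the 13 Kyse30 conditions, the genes with the pattern most like that of each factor called there were sought among 10242 genes of at least 5 CPM, by Pearson correlation of mean log2 CPM over conditions, which share their libraries. For KLF5 these were CLDN4 (r = 0.974), MSLN (r = 0.968), and TIGD5 (r = 0.967). For GRHL2 they were TK2 (r = 0.954), CCNG2 (r = 0.951), and GCC2 (r = 0.951), for SOX2 SAMD13 (r = 0.963), SLC29A3 (r = 0.931), and IRX2-DT (r = 0.924), and for EHF MED15 (r = 0.901), SLC44A2 (r = 0.893), and DSG2 (r = 0.893).

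Over all conditions, KLF5, GRHL2, and TFAP2A varied least between Kyse30 libraries, with the highest library 3.15, 3.8, and 4.95 times the lowest. Of the factors with every library above 0, EHF varied most, from 0.366 to 40.5 CPM (110 times), followed by OVOL1, SOX2, and TP63 at 22.6, 21.7, and 21.3 times. The lowest EHF library had 2 counts, under the 3 taken as detected, so that the EHF range is uncertain. EHF was over 3 counts in 41 of 43 libraries. ELF3 ran from 107 CPM with EpEX at 6 h (replicate 3) to 710 CPM with EGFhigh + EpEX at 72 h (replicate 1), and KLF4 from 8.28 CPM with EGFhigh at 72 h (replicate 1) to 119 CPM with Fc at 72 h (replicate 2). In FaDu replicates 3 and 4, TFAP2A varied least (80.9 to 179 CPM, 2.22 times), whereas SOX2 ranged from 1.26 to 139 CPM (111 times).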

How the data were processed

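RNA of 84 libraries was sequenced with QuantSeq 3′ FWD chemistry. The authors deposited raw counts of reads per Ensembl gene. The submitters' notes name STAR, HTSeq, and GRCh38/hg38. Versions, the strand setting, and the treatment of PCR copies are not given in the sources used here. Symbols came from GENCODE 29, with 58275 of 58395 identifiers matched. Members and gene lists were chosen with earlier results of these data known.

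Groups came from the labels, without unassigned samples, and no libraries had identical counts. Genes passed edgeR's filterByExpr (minimum count 10, minimum total 15), libraries were scaled by TMM, and the quasi-likelihood F test of edgeR 4.0.16 (R 4.3.3) was fitted to 43 Kyse30, 20 FaDu, or 63 libraries, with Benjamini-Hochberg adjustment over all genes tested. Every adjusted p is two-sided and from edgeR unless DESeq2 1.42.0 is named. CPM used TMM-scaled totals, and similar patterns used log2 CPM with a prior count of 2. Alternatives were DESeq2, RLE size factors, no filter, a replicate block, only the groups compared, each library left out, and all 41 FaDu libraries. The script was tested on simulated data. Besides the 10 members, up to 2 called genes with the largest rise and up to 2 with the largest fall of each list were named in 4 comparisons, and the 3 genes most like each factor called in Kyse30. Of the genes named by this rule, 1 is not reported here.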

Additional observations from a re-analysis of the deposited data

Results flagged for a closer look

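SOX2 in Kyse30 EGFlow at 6 h was flagged because 1 library lay far from the others. Replicate 2 was at 185 CPM, against 31.5, 38.7, and 48.2 CPM, with a gap of 0.891 of the whole range. Of 40 sets of libraries examined this way (10 factors in 4 conditions) 1 was flagged, and chance flags about 1 in 20. Without that library the log2FC of EGFlow against untreated cells was -1.71 (SE 0.60, adjusted p = 0.143) in place of -0.77 (adjusted p = 0.634), by edgeR's quasi-likelihood test.

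KLF5 was flagged because its response to EGFhigh at 6 h differed between the lines, with a log2FC larger by 1.33 in FaDu replicates 3 and 4 than in Kyse30 (SE 0.26, 95% confidence interval of 0.81 to 1.86, edgeR adjusted p = 0.0129). KLF5 was higher in each EGFhigh library than in each untreated library in Kyse30 and in FaDu replicates 3 and 4. Line and library batch cannot be told apart.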

How the results depend on the processing

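Of 2581 recomputed log2FC of a factor, 2485 kept their direction and side of the threshold, 52 lost a call, 42 gained one, and 2 reversed, both with all 41 FaDu libraries: EHF between the lines (2.31) and the KLF5 interaction (-0.40). The causes were not tested. With all 41 FaDu libraries, 0 factors were called in each of the 5 FaDu comparisons and the interaction. Without a filter on low counts, 1 factor was called with EpEX, EGFhigh + EpEX against Fc, EGFhigh against EGFlow, and EGFhigh + EpEX against EGFhigh in Kyse30 at 6 h. At 72 h, 2 were called with EGFhigh, 3 against EGFlow, 2 with EGFhigh + EpEX against EGFhigh, and 2 in the change of the EGFhigh effect. In FaDu, 5 were called with EGFhigh at 6 h, 2 with EGFhigh + EpEX at 72 h, and 4 in Fc cells over time, and 5 differed between the lines. With only the groups compared, 1 was called with EGFhigh + EpEX in Kyse30 at 6 h, 2 with EGFhigh at 72 h, 2 with EGFhigh + EpEX in FaDu at 72 h, and 5 between the lines. DESeq2 called 1 with EGFlow at 6 h and 1 with EGFhigh at 72 h in Kyse30.

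Leaving out each library in turn gave 0 to 2 factors with EGFhigh and with EGFhigh + EpEX in Kyse30 at 6 h, 0 to 1 with EGFlow at 6 h, for EGFhigh against EGFlow at 72 h, over time in untreated Kyse30 cells, and with EGFhigh + EpEX in FaDu at 72 h, and 0 in Fc FaDu cells over time. Leave-one-out fits of the comparisons over both lines were not run.

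Same-numbered libraries of different groups were only weakly correlated in their deviations from group means. The mean was 0.0633 over 217 Kyse30 pairs (range -0.131 to 0.289) and 0.0713 over 42 FaDu pairs (range -0.0362 to 0.241). Kyse30 pairs of different numbers had a mean of -0.0216. The main fits do not pair replicates. As a hint from the data, 38 of 43 Kyse30 and 14 of 14 FaDu libraries were closest to their own number. The 2 FaDu libraries of a group deviate from their mean by equal and opposite amounts. The 42 FaDu pairs and 14 FaDu libraries are therefore not independent of each other. With the replicate block, 1 factor was called with EGFlow at 6 h and 2 with EGFhigh at 72 h in Kyse30, 2 with EGFhigh + EpEX in FaDu at 72 h, and 3 in Fc FaDu cells over time. SOX2 was called in FaDu at 6 h with EGFhigh (log2FC -2.83, edgeR adjusted p = 3.97e-05), EGFlow (-2.70, 5.59e-05), and EpEX (-2.76, 4.15e-05), and at 72 h with EGFhigh + EpEX (-2.05, 0.000641). In Kyse30 at 72 h with EGFhigh, EHF (2.01, 0.0264) and OVOL1 (1.61, 0.0352) were.

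Over all genes, DESeq2, no filter, the block, and only the groups compared gave 673, 581, 636, and 574 DEGs with EGFhigh in Kyse30 at 6 h against 391, and 413, 399, 417, and 359 with EGFlow against 230. They gave 83, 105, 48, and 9 with EpEX against 4, and 1112, 943, 1091, and 209 with EGFhigh + EpEX against 694. At 72 h only the groups compared gave 502 with EGFhigh against 951. They gave 241 against EGFlow in place of 573 and 194 with EGFhigh + EpEX against EGFhigh in place of 550 (DESeq2 846). Over time in untreated cells the counts were 479, 407, 410, and 433 against 238, and the change of the EGFhigh effect had 304 (DESeq2) and 401 (no filter) against 155. In FaDu, only the groups compared gave 272 with EGFhigh and 232 with EpEX, against 491 and 560. EGFhigh + EpEX at 72 h had 207, 316, 246, and 290 against 131, Fc over time 699, 803, and 747 (DESeq2, no filter, block) against 462, and the interaction 37, 70, 30, and 22 against 12. Between the lines all 41 FaDu libraries gave 3960 against 7149, no filter 6891, and only the groups compared 6910. No filter gave 719 with EGFhigh in FaDu at 6 h. In Kyse30 at 6 h it gave 7 for EGFhigh against EGFlow and 10 for EGFhigh + EpEX against EGFhigh. At 72 h it gave 779 and 790 for these comparisons and 1115 with EGFhigh, where DESeq2 gave 1233 and the block 977. Shares are not given for the alternatives, whose numbers of genes tested can differ.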
